A study of Arabidopsis thaliana with 6 samples.

Results

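Phosphate starvation and transport genes were examined as a group in Arabidopsis thaliana Col-0 seedlings that overexpress GRF5, a member of the growth-regulating factors of plants, which act in transcription. The group was a list of 45 locus codes that covers the non-coding RNA At4 and its relative IPS1, the SPX proteins, the PHR1 and PHL1 transcription factors, phosphate transporters and exporters, galactolipid and sulfolipid synthases, phospholipases, phosphatases and kinases. Of these, 39 had a row among the 20777 loci of the deposited table, and every count below is over those 39. IPS1, PHT1;1, PHT1;2, PHT1;7, NPC4 and NPC5 had no row in that table, and their levels were not analysed here. The list was put together with results of this same comparison in view, At4 and AT5G20790 having been seen among its large decreases. The differences and calls below therefore describe the listed genes and are not independent evidence about them.

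RNA of the vegetative part of seedlings was hybridised to ATH1 oligonucleotide arrays, 3 from wild-type Col-0 plants and 3 from the 35S::GRF5 line in the same background. Both groups were sampled at growth stage 1.03 from plates of MS medium kept at 22 °C in days of 16 h light and 8 h dark. MS is a full nutrient medium that supplies phosphate, and the labels name no phosphate treatment in either group. The 35S promoter of the transgene is active in most plant tissues, and the series describes a single overexpressing line. The labels call the samples biological repeats without saying whether the plants were grown separately, so the p-values measure the spread between these samples. Values are log2 expression after RMA, differences are those of 35S::GRF5 less wild type, and a gene is said to have fallen or risen only where limma's adjusted p over all 20777 loci was below 0.05.

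Plants take up phosphorus as inorganic phosphate. When it runs short, the MYB transcription factor PHR1 and its relatives switch on a common set of genes for uptake, recycling and sparing of phosphate, and when it is plentiful SPX proteins bind PHR1 and hold it back. A second branch runs through the microRNA miR399, which lowers the mRNA of PHO2, an enzyme that marks phosphate transporters for breakdown. At4 and IPS1 carry a decoy of the miR399 target site and so blunt its action. In leaves, starved plants also replace membrane phospholipids with galactolipids and sulfolipids, which hold no phosphate.

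GRF5 read 4.73, 4.75 and 4.26 in wild type and 11.34, 11.42 and 12.08 in 35S::GRF5, so the arrays follow their labels. Correlations across loci were 0.993 to 0.997 within groups and 0.990 to 0.995 between them. The array farthest from its group mean was 35S::GRF5 replicate 1, with a root mean square deviation of 0.162, and the closest was wild type replicate 1, with 0.101. The leaf markers RCA and CA1, the only 2 of 5 listed that were measured, lay above 99.97% and 99.88% of loci. Of 8 root markers, 7 had a mean below that of the median locus, while PYK10, a beta-glucosidase of roots and hypocotyls, lay above 97.7% of loci. PYK10 differed by 0.35 (95% interval 0.08 to 0.62, adjusted p = 0.209) without overlap, every array of the line being higher. The mean of the root list ran from 5.57 to 5.61 in wild type and from 5.58 to 5.62 in 35S::GRF5, and that of the 5 reproductive markers from 3.90 to 4.02 and from 3.87 to 4.06. Among the latter SEP3, a floral regulator, differed by -0.44 (-0.75 to -0.13, adjusted p = 0.178) without overlap, and the other 4 by 0.03 to 0.12. The part of PYK10 and SEP3 in the results below was not tested. RNA was taken from all cells of the part together, so fewer cells of a type and less RNA per cell cannot be told apart.

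Of the 39 measured genes, 5 fell in 35S::GRF5 and 0 rose, while 101 of all loci (0.486%) fell and 59 (0.284%) rose. The 5 were At4, AT5G20790, G3Pp1, GDPD1 and PAP17. At an unadjusted p below 0.05 there were 11 listed genes, all with negative differences, beside 15.5% of all loci. Differences were negative for 30 genes and positive for 9, with a median of -0.11, while the median of all loci was 0.02 and 43.8% of loci were negative; with each array centred on its median 33 genes and 53.9% of loci were negative. Differences of at least 0.4 log2 units either way were seen in 7 genes, all of them lower, beside 4.49% of all loci. The groups did not overlap for 13 genes that were lower in the line and for 1 that was higher, where 8.45% and 13.2% of all loci had these patterns. As the comparison had a part in choosing the list, nothing is read from these shares. The 5 genes passed as well with arrays centred on their medians, with quantile normalization and with array weights, but none passed without wild type replicate 1, and At4 alone passed when wild type replicate 3, or replicate 2 or 3 of the line, was left out.

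**Figure D1:**
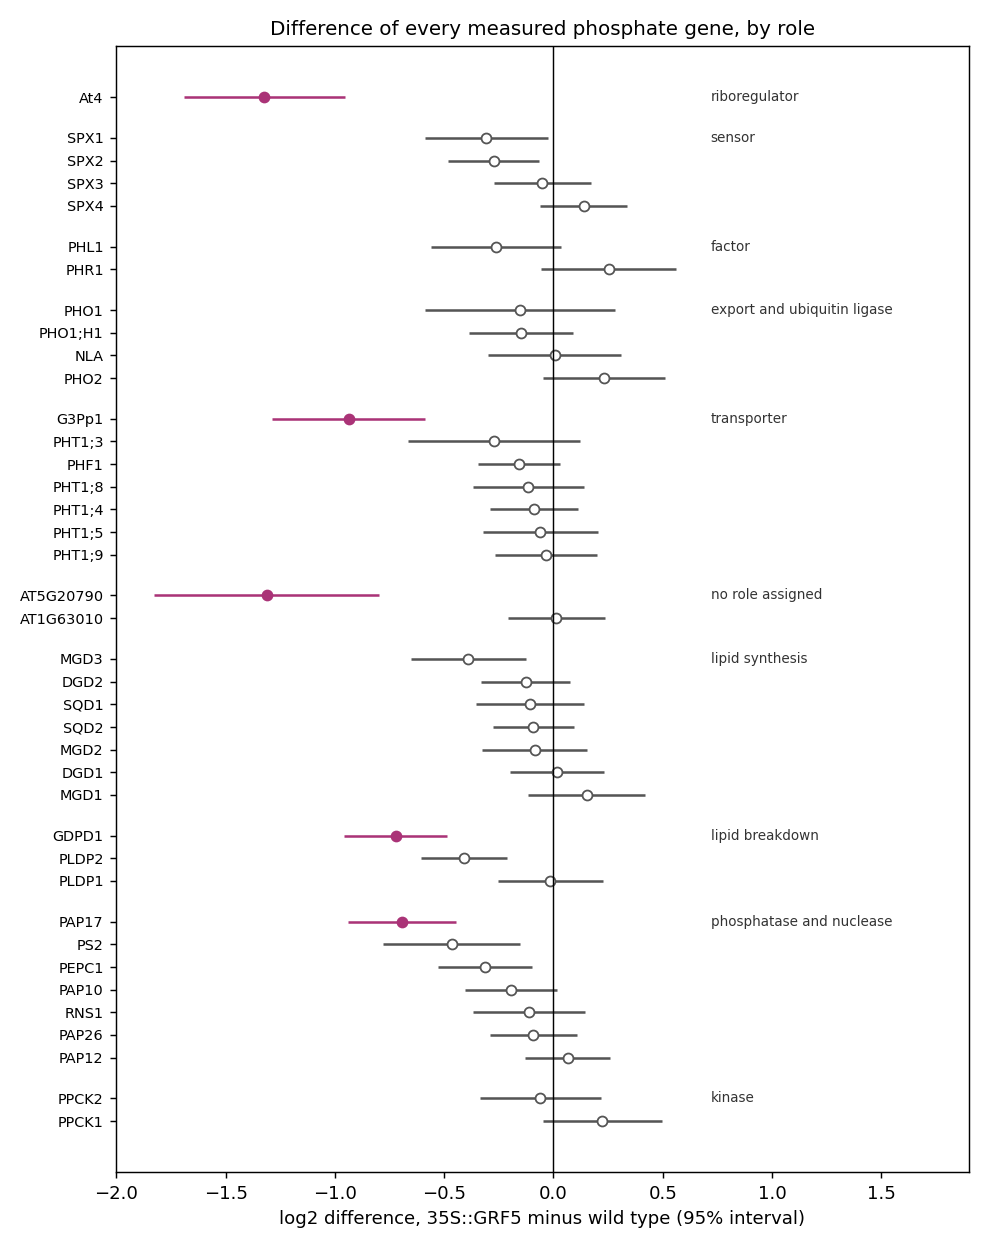
Log2 difference (35S::GRF5 minus wild type, horizontal axis) of each of the 39 measured phosphate genes, grouped by role, with bars for the 95% interval from limma (3 arrays per group). Filled points mark the 5 genes with an adjusted p below 0.05, all on the negative side, and 28 of the 39 intervals span 0.

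At4 (AT5G03545, also called IPS2) and AT5G20790 had the lowest differences of the group, and which of them was lower varied with the array left out. The values of At4, given like all those below in the order of replicates 1 to 3, were 7.63, 7.38 and 6.94 in wild type and 5.85, 5.97 and 6.16 in the line. Every wild-type array lay above every array of the line. The level fell from 7.32 ± 0.35 to 5.99 ± 0.16 (mean ± SD, n = 3), a difference of -1.32 (95% interval -1.69 to -0.96) which is 2.50-fold (limma, adjusted p = 0.0111). Whichever array was left out the difference stayed between -1.51 and -1.16, and the call was lost only without wild type replicate 1 (adjusted p = 0.0503; range over all alternatives 0.00218 to 0.0503). In wild type alone At4 was among the more variable transcripts, with an SD above that of 98.5% of loci.

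AT5G20790, a locus with no name in the reference table, showed a fall of similar size and a wider spread. Its values were 5.80, 4.88 and 5.93 in wild type and 4.30, 4.11 and 4.26 in the line. The groups did not overlap, but wild type replicate 2 lay nearer to the highest array of 35S::GRF5 than to the other wild-type arrays. The difference was -1.31 (-1.83 to -0.80), or 2.48-fold (adjusted p = 0.0372). Its wild-type SD of 0.57 exceeded that of 99.6% of loci, whereas the SD in the line was 0.10. The mean of AT5G20790 in the line, 4.22, was close to the wild-type mean of the listed gene PEPC1 (4.21). That PEPC1 mean lay above the wild-type mean of only 21.2% of loci. Signal so low cannot be separated from background without detection calls, which limits what the fold change and the small SD in the line can show. Without wild type replicate 2 the difference was -1.64 (adjusted p = 0.000744), and without any other single array it lay between -1.35 and -1.11 and missed the threshold (adjusted p 0.0644 to 0.168). It also missed with trend and robust estimation (adjusted p = 0.0524).

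**Figure D2:**
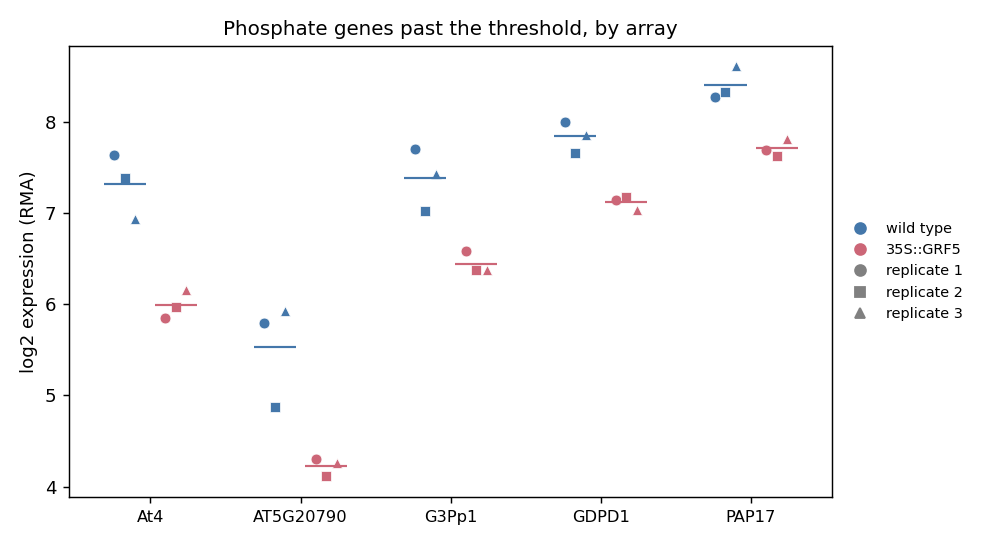
Log2 expression (vertical axis) of At4, AT5G20790, G3Pp1, GDPD1 and PAP17 in each array, with wild type in blue, 35S::GRF5 in red, symbols for the replicate number and a line at each group mean. For all 5 genes the lowest wild-type array lies above the highest array of the line, from At4 (6.94 against 6.16) to G3Pp1 (7.01 against 6.58).

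G3Pp1 (AT3G47420), named as a glycerol-3-phosphate permease and also known as phosphate starvation-induced gene 3, had values of 7.70, 7.01 and 7.42 in wild type and 6.58, 6.37 and 6.37 in 35S::GRF5. The 3 arrays of the line lay close together and below all of wild type. It fell 1.92-fold, by a difference of -0.94 (-1.29 to -0.59, adjusted p = 0.0311). The difference ranged from -1.12 without wild type replicate 2 to -0.78 without wild type replicate 1, and the gene passed when wild type replicate 2 or replicate 1 of the line was left out but in none of the other 4 that leave out an array (adjusted p 0.0976 to 0.120). As with At4 and AT5G20790, its wild-type SD was high, above that of 98.4% of loci.

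GDPD1 (AT3G02040) encodes a glycerophosphodiester phosphodiesterase, which splits the head group from deacylated phospholipids and frees glycerol-3-phosphate, the compound that G3Pp1 is named for. It read 8.00, 7.66 and 7.86 in wild type and 7.14, 7.17 and 7.03 in the line. All wild-type values were above all values of the line. The decrease was 1.65-fold (difference -0.72, -0.96 to -0.49, adjusted p = 0.0212), between -0.81 and -0.64 with each array left out. Leaving out replicate 1 or 3 of wild type, or replicate 2 or 3 of the line, ended the call (adjusted p 0.0555 to 0.114).

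PAP17 (AT3G17790) is a purple acid phosphatase that is widely used as a marker of phosphate starvation and also of senescence. Values of 8.27, 8.32 and 8.60 in wild type stood against 7.68, 7.63 and 7.81 in 35S::GRF5. The groups were apart, and wild type replicate 3 was the highest. It fell 1.62-fold (difference -0.69, -0.94 to -0.45, adjusted p = 0.0254), and with single arrays left out the difference was -0.76 to -0.59. It passed only without 35S::GRF5 replicate 1 among those 6 fits (adjusted p 0.0648 to 0.0871 in the other 5).

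**Figure D3:**
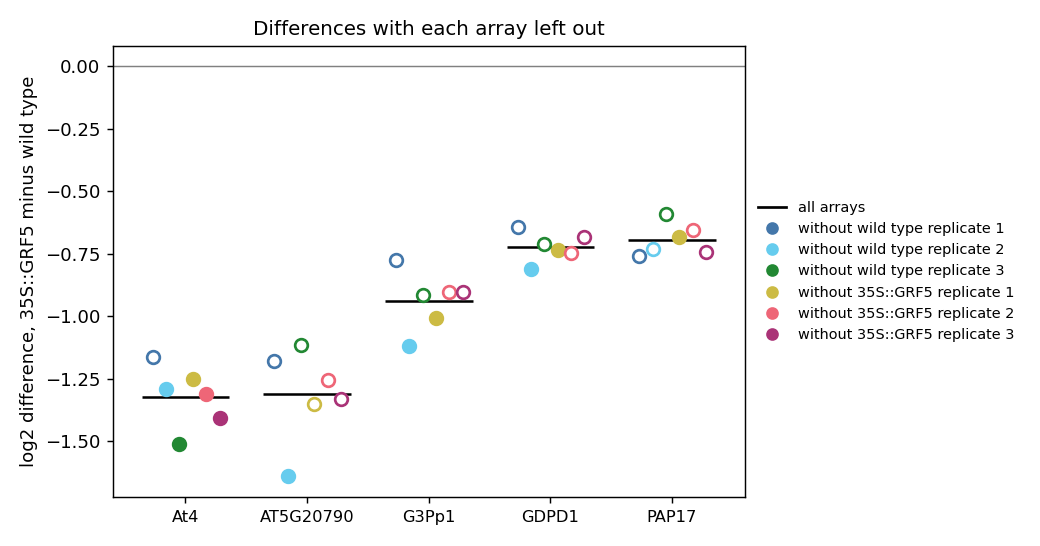
Log2 difference (35S::GRF5 minus wild type, vertical axis) of the 5 genes that fell, over all arrays (black line) and with each array left out in turn (coloured points, filled where the adjusted p stayed below 0.05). All 30 points lie below 0, and At4 has the most filled points, 5 of 6.

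The SPX proteins are sensors that bind inositol pyrophosphates when phosphate is plentiful and then block PHR1. By limma 0 of the 4 passed the threshold and 2 had an unadjusted p below 0.05. SPX1, itself induced by starvation, read 8.57, 8.30 and 8.67 in wild type and 8.02, 8.20 and 8.39 in the line, a difference of -0.31 (-0.59 to -0.03, adjusted p = 0.281), and the groups overlapped because replicate 3 of the line exceeded replicate 2 of wild type. For its close relative SPX2 the values were 8.40, 8.31 and 8.49 in wild type and 8.03, 8.16 and 8.20 in the line, without overlap and with a difference of -0.27 (-0.48 to -0.07, adjusted p = 0.202). SPX3 read 3.94, 4.23 and 4.13 against 4.036, 4.0004 and 4.114, values in the lower part of the array's range, and the groups were interleaved (difference -0.05, -0.27 to 0.17). SPX4, another PHR1-binding member, was the 1 listed gene whose groups stood apart with the line higher in the deposited values, by 0.14 (-0.06 to 0.34, adjusted p = 0.502).

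PHR1, the MYB factor at the head of the response, has an mRNA level that responds little to phosphate supply. Its values were 7.27, 7.31 and 7.02 in wild type and 7.71, 7.20 and 7.45 in the line, which overlapped, with a difference of 0.25 (-0.06 to 0.56, adjusted p = 0.42). PHL1, a PHR1 relative with shared targets, differed by -0.26 (-0.56 to 0.03, adjusted p = 0.383).

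PHO2 is the ubiquitin-conjugating enzyme that miR399 targets. It read 8.70, 8.75 and 8.82 in wild type and 8.72, 9.21 and 9.04 in the line. Replicates 2 and 3 of the line were above wild type and replicate 1 was not, so the groups overlapped (difference 0.23, -0.05 to 0.51, adjusted p = 0.41). NLA, a ubiquitin ligase that acts on the same transporters, differed by 0.01 (-0.30 to 0.31). PHO1, which exports phosphate to the xylem, read 5.80, 6.12 and 6.12 against 5.38, 5.98 and 6.23, a difference of -0.15 (-0.59 to 0.28) that was 0.09 without 35S::GRF5 replicate 1. Its relative PHO1;H1 differed by -0.15 (-0.39 to 0.09).

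**Figure D4:**
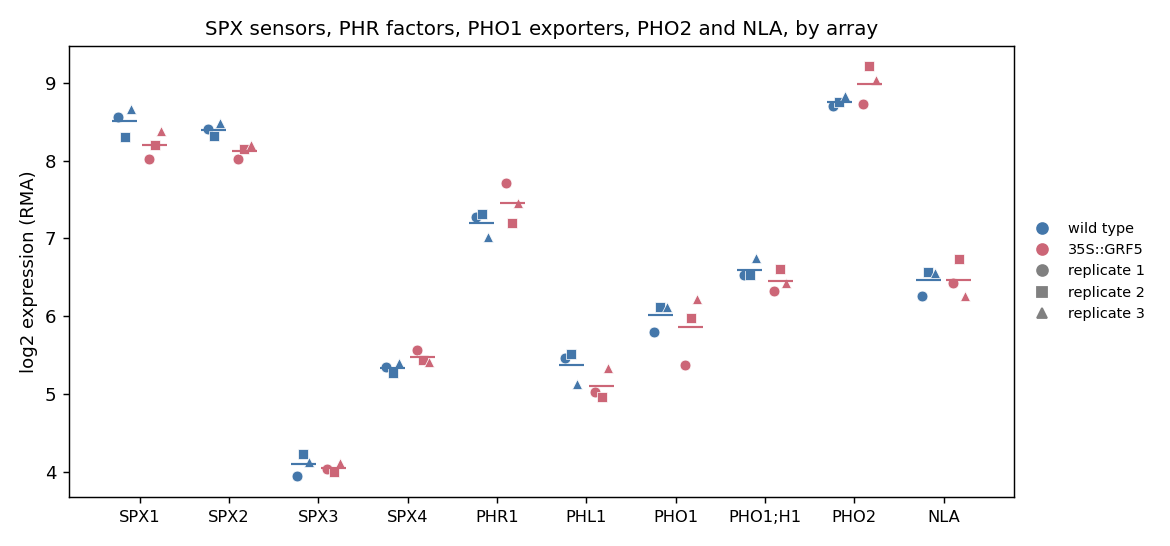
Log2 expression (vertical axis) of the SPX sensors, PHR1 and PHL1, the PHO1 exporters, PHO2 and NLA in each array, with wild type in blue, 35S::GRF5 in red, symbols for the replicate number and a line at each group mean. In the deposited values SPX2 lies lower and SPX4 higher in all 3 arrays of the line, and the groups overlap for the other 8 genes.

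PHT1 proteins are proton-coupled phosphate transporters of the plasma membrane, most of them strongest in roots. Of the 5 measured, PHT1;3, PHT1;4, PHT1;5 and PHT1;9 had mean levels within the lowest 25% of loci, where signal cannot be separated from background without detection calls. PHT1;4 read 3.50, 3.37 and 3.49 in wild type and 3.32, 3.30 and 3.46 in the line, which overlapped (difference -0.09, -0.29 to 0.11). The other 4 differed by between -0.27 (PHT1;3) and -0.04 (PHT1;9), with overlapping groups and intervals that span 0. PHF1, which helps PHT1 proteins leave the endoplasmic reticulum, gave 8.11, 8.10 and 8.08 in wild type and 7.99, 7.96 and 7.87 in the line. These did not overlap, and the difference was -0.16 (-0.34 to 0.03, adjusted p = 0.409). AT1G63010, which has no gene name in the reference table, read 8.74, 8.67 and 8.84 against 8.70, 8.67 and 8.92 (difference 0.01, -0.21 to 0.24).

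Among enzymes of galactolipid and sulfolipid synthesis 0 of 7 passed the threshold in limma and 1, MGD3, had an unadjusted p below 0.05. It is a monogalactosyldiacylglycerol synthase of the starvation-inducible type, with the lowest difference of the 7 and values of 4.99, 4.85 and 4.94 in wild type and 4.69, 4.29 and 4.63 in the line. The groups did not overlap, and the difference was -0.39 (-0.65 to -0.13, adjusted p = 0.159; 0.0993 to 0.408 over the alternatives). MGD2, of the same type, differed by -0.09 (-0.33 to 0.16) and MGD1, the main enzyme of chloroplast membranes, by 0.15 (-0.11 to 0.42). SQD1, which makes the sulfur-containing sugar nucleotide, read 10.06, 9.98 and 9.87 against 9.66, 9.95 and 9.98 (difference -0.11, -0.35 to 0.14). SQD2, which joins that sugar to the lipid, read 8.52, 8.52 and 8.56 against 8.50, 8.43 and 8.40. All arrays of the line were lower for SQD2, by a small margin, with a difference of -0.09 (-0.28 to 0.09, adjusted p = 0.643). The digalactosyldiacylglycerol synthases DGD1 and DGD2 differed by 0.02 (-0.20 to 0.23) and -0.13 (-0.33 to 0.08).

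On the side of phospholipid breakdown, GDPD1 was the 1 of 3 measured genes that fell. PLDP2, the phospholipase D zeta 2 that is induced by starvation, came nearest to the threshold of all genes that missed it. Its values of 4.43, 4.47 and 4.41 in wild type and 4.04, 3.92 and 4.12 in the line were tight and apart, though within the lowest 25% of loci by mean level. The difference was -0.41 (-0.61 to -0.21, adjusted p = 0.0748), and no alternative took it past the threshold (0.0543 to 0.255). PLDP1, phospholipase D zeta 1, differed by -0.01 (-0.25 to 0.23).

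Beside PAP17, which fell, 6 other phosphatase and nuclease genes missed the threshold. PS2 (AT1G73010), a pyrophosphate-specific phosphatase, read 4.04, 4.22 and 4.48 in wild type and 3.67, 4.03 and 3.65 in the line. The highest array of the line came just below the lowest of wild type, and the difference was -0.47 (-0.78 to -0.15, adjusted p = 0.159). PEPC1 (AT1G17710), a phosphatase of phosphoethanolamine and phosphocholine and not the carboxylase of similar name, read 4.24, 4.14 and 4.24 against 4.05, 3.80 and 3.83. Its groups were apart as well (difference -0.31, -0.53 to -0.10, adjusted p = 0.164), and both genes lay within the lowest 25% of loci by mean level. PAP10, a purple acid phosphatase of the root surface, differed by -0.20 (-0.41 to 0.02) without overlap. For the purple acid phosphatases PAP12 and PAP26 and the ribonuclease RNS1 the groups overlapped, with differences of 0.06 (-0.13 to 0.26), -0.09 (-0.29 to 0.11) and -0.11 (-0.37 to 0.14). RNS1 also lay within the lowest 25% of loci by mean level, above 12.3% of loci.

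The kinases PPCK1 and PPCK2 phosphorylate phosphoenolpyruvate carboxylase, and both overlapped between groups. PPCK1 read 7.21, 7.31 and 6.94 in wild type and 7.52, 7.21 and 7.41 in the line, a difference of 0.22 (-0.05 to 0.50, adjusted p = 0.413). PPCK2 differed by -0.06 (-0.34 to 0.22).

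In wild type, 3 of the 39 genes, At4, AT5G20790 and G3Pp1, had an SD above the 95th percentile of all loci, and 15 had one above the 75th. At4 and AT5G20790 were among the genes known for large decreases when the list was made, so these spreads are a description too. The replicate in which a gene was lowest was not shared by the 5 genes that fell. Within wild type, replicate 2 was lowest for 3 of them (AT5G20790, G3Pp1 and GDPD1), replicate 3 for At4 and replicate 1 for PAP17. Over all 39 genes, wild type replicate 2 was the lowest of its group for 16 and the highest for 8, where it was lowest for 31.9% and highest for 34.9% of all loci. The wild-type SD exceeded that of the line for 16 of the 39 genes and for 37.5% of all loci.

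Further genes of phosphate signalling, transport and recycling were taken from another list of 70. That list too was chosen with earlier results of these data known, so its counts are a description. The reference table did not carry the listed name for 16 of the 70 genes, which were left out, and 1 had no row, which left 53. In limma 0 of the 53 fell and 0 rose, against 0.77% of all loci in either direction. Of the 53, 4 (7.55%) had an unadjusted p below 0.05, a smaller share than the 15.5% of all loci. The median difference of the 53 was -0.04, with 34 negative and 19 positive. The lowest was ZAT6, a zinc finger factor that also responds to other stresses, at -0.61 (-1.32 to 0.10). Wild type replicate 3 read 6.80 and the other 5 arrays 5.05 to 5.47 for ZAT6, and without that array the difference was -0.15. LPR1, a multicopper oxidase of the root tip's response to low phosphate, differed by -0.37 (-0.72 to -0.02, adjusted p = 0.29), and the purple acid phosphatase PAP8 by -0.37 (-0.65 to -0.10, adjusted p = 0.193). The highest were the purple acid phosphatase PAP15, at 0.36 (0.09 to 0.64, adjusted p = 0.204), UGP3, a chloroplast enzyme that supplies UDP-glucose for sulfolipids, at 0.23 (-0.02 to 0.48), and the SPX-domain gene SHB1 at 0.19 (-0.03 to 0.41). Whether the 39 genes and these 53 differ from each other was not tested.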

How the data were processed

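The deposited values are log2 expression values on 6 ATH1 arrays, which the authors obtained with RMA (no version given), per the submitters' processing notes. The table has 1 row per locus code. The map from probes to loci and the set of arrays normalised together are not given in the sources used here. Neither scanner files nor detection calls entered the analysis. Groups were compared by lmFit and eBayes of limma 3.58.1 under R 4.3.3 (two-sided, intervals of 95%), with Benjamini-Hochberg adjustment over 20777 loci, a threshold of 0.05 and no filter. An array holds no counts, so precision rests on the number of arrays: the median interval reached 0.25 to either side for the 39 genes. Names came from RefSeq's TAIR10.1 gene table. No sequence was used, so a listed motif count in promoters was not run.

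The members and lists were chosen with earlier results of these data known. Values per array are given for genes past the threshold, for differences of at least 0.4 either way, and for a chosen set of 17 names, PHT5;1 being AT1G63010 here; SPX2, PHF1 and the lists' extremes were added. Of the further genes, the 3 largest differences each way are named. Alternatives were centring, quantile normalization, filters on low means, trend and robust estimation, array weights, the replicate number as a block and leaving out each array. On simulated data over 20777 genes (10 runs), limma recovered 99.5% of changes of 1 log2 unit and 64.2% of changes of 0.5, and called 0.068% of unchanged genes. These shares are not split by the spread of a gene. They do not give the recovery for variable genes such as AT5G20790.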

Additional observations from a re-analysis of the deposited data

How the results depend on the processing

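The count of 5 lower and 0 higher genes was the same in 5 of the 7 alternatives that keep all arrays, and 4 were lower over loci above the median, where AT5G20790 was filtered out, and with trend and robust estimation. With 1 array left out, 0 to 4 were lower. The median difference of the group was -0.15 with arrays centred on their medians and -0.15 to -0.084 with 1 array left out. Over all loci, 160 were called, 252 with trend and robust estimation, 294 with array weights and 17 to 186 with 1 array left out; with centring the split of 59 higher and 101 lower became 45 and 126, while 33 of the 39 phosphate genes were negative instead of 30. In the fit with a replicate block the same 5 genes passed and 114 loci were called. Deviations of same-numbered arrays correlated at -0.05, 0.06 and -0.11, and those of differently numbered arrays at -0.08 to 0.11. Same-numbered arrays were thus no more alike than others. With 3 arrays per group these values cannot decide whether same-numbered samples were grown or processed together.

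Of the 39 genes, 30 kept their sign whichever array was left out. The 9 others had differences over all arrays between -0.060 (PPCK2) and 0.016 (DGD1), except for PHO1 at -0.15. With single arrays left out these 9 ranged from -0.13 to 0.014 (SPX3), -0.34 to 0.089 (PHO1), -0.12 to 0.11 (NLA), -0.17 to 0.049 (PHT1;5), -0.095 to 0.053 (PHT1;9), -0.063 to 0.062 (AT1G63010), -0.040 to 0.077 (DGD1), -0.11 to 0.075 (PLDP1) and -0.17 to 0.017 (PPCK2). Centring and quantile normalization turned NLA to -0.032 and -0.034, AT1G63010 to -0.024 and -0.025, and DGD1 to -0.023 and -0.025. Array weights turned DGD1 to -0.026, PHO1 to 0.017 and PLDP1 to 0.013. The cause was not tested. A fit without 1 array has fewer values and less precision.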
